A study of Bos taurus with 24 samples.

Results

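The transcription factor ATF4 and its target genes were followed in 24 single early bovine blastocysts. Of the 10 genes listed by symbol, 9 had a row among the 24621 genes of the count table: ATF4, DDIT3, ATF3, TRIB3, DDIT4, SESN2, CHAC1, ASNS and PCK2. The tenth, CEBPB, a bZIP partner of ATF4, was not analysed here. All embryos were Holstein, sired by the same bull. The 8 in vivo derived embryos (5 male, 3 female) were flushed from the uterus of superovulated cows a week after insemination. The 8 embryos of the serum group (3 male, 5 female) came from oocytes matured in 20% fetal bovine serum with 0.4 mM glutamine, which is not listed for serum-free maturation, and were cultured in synthetic oviduct fluid with 5% serum. The 8 embryos of the serum-free group (5 male, 3 female) came from oocytes matured with epidermal growth factor and were cultured in synthetic oviduct fluid with bovine serum albumin and insulin, transferrin and selenium. Both in vitro groups developed under 5% oxygen in media that held amino acids and were collected between day 6 and day 7, so the age of the groups was not strictly matched. The embryos carry the labels A (in vivo), B (serum) and C (serum-free) with a number. The labels do not say which cow or which in vitro experiment an embryo came from. Embryos of a group can therefore share a cow or an experiment, and no comparison was made within these.

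In the integrated stress response, kinases that sense a lack of amino acids, misfolded protein in the endoplasmic reticulum, double-stranded RNA or a lack of heme phosphorylate the translation factor eIF2alpha. Protein synthesis then slows in general, while the ATF4 mRNA is translated more, and the ATF4 protein switches on genes of amino acid synthesis and transport, of feedback and, when the stress lasts, of cell death. Preimplantation embryos live on the amino acids, pyruvate and lactate of the fluid or medium around them. The counts measure mRNA, so the amount of ATF4 protein and the phosphorylation of eIF2alpha were not measured.

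Levels are given as CPM, counts scaled to a common library size after TMM normalization over all 24 embryos. They are not divided by gene length, so they compare embryos for 1 gene and not genes with each other. Log2 fold changes come from the quasi-likelihood test of edgeR with Benjamini-Hochberg adjustment over all genes tested, with an approximate standard error (SE). Genes entered the test with 15 counts or more in each embryo of 1 or both groups. A gene changed with an adjusted p under 0.05, and it was differentially expressed when the change was also at least 2-fold. For members below the count limit, the values come from the same test over all genes with at least 1 count in any embryo of the groups compared.

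The total exon counts of the embryos lay between 3253051 and 9000447 (median 4454031), and between 11735 and 14732 genes had a count. In trophectoderm and primitive endoderm markers, the serum group stood apart from the in vivo derived embryos before any member was looked at. It overlapped with the serum-free group in both. Its summed level of 8 trophectoderm markers, genes of the outer layer of the blastocyst, was 296 to 5186 CPM, against 7628 to 14914 CPM in vivo and 5001 to 27995 CPM in serum-free medium. Of these, CDX2 was at or near 0 in all groups (at most 2.48 CPM). The sum of 6 primitive endoderm markers was 25.6 to 237 CPM in serum, 342 to 601 CPM in vivo and 127 to 393 CPM in serum-free medium, with SOX17 at 0 in all in vivo and serum embryos. The sums of 6 inner cell mass markers (509 to 1012 CPM), of 7 cumulus and granulosa cell markers (1.69 to 44.6 CPM, PTX3 at 0 in all embryos) and of 5 blood and immune markers (0 to 8.57 CPM) overlapped between the groups. The part of these cell types in the results on serum was not tested. The 4 embryos with the fewest genes with a count, 11735 to 12390, were B1, B2, B5 and B7 of the serum group, which included all 3 of its male embryos. In whole embryos, fewer cells of a type and less RNA per cell cannot be told apart.

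Both in vitro groups carried more DDIT4 mRNA than the in vivo derived embryos, and the serum-free embryos carried several times more PCK2 mRNA as well. ATF4 itself was moderately higher in serum-free embryos, but this call sat at the threshold (edgeR, adjusted p = 0.0479). It held in only 5 of 16 fits that left out 1 embryo. DDIT3, ATF3, TRIB3, SESN2, CHAC1 and ASNS did not pass the test in any of the 3 comparisons of all embryos, although CHAC1 and SESN2 had higher medians in both in vitro groups than in vivo.

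**Figure D1:**
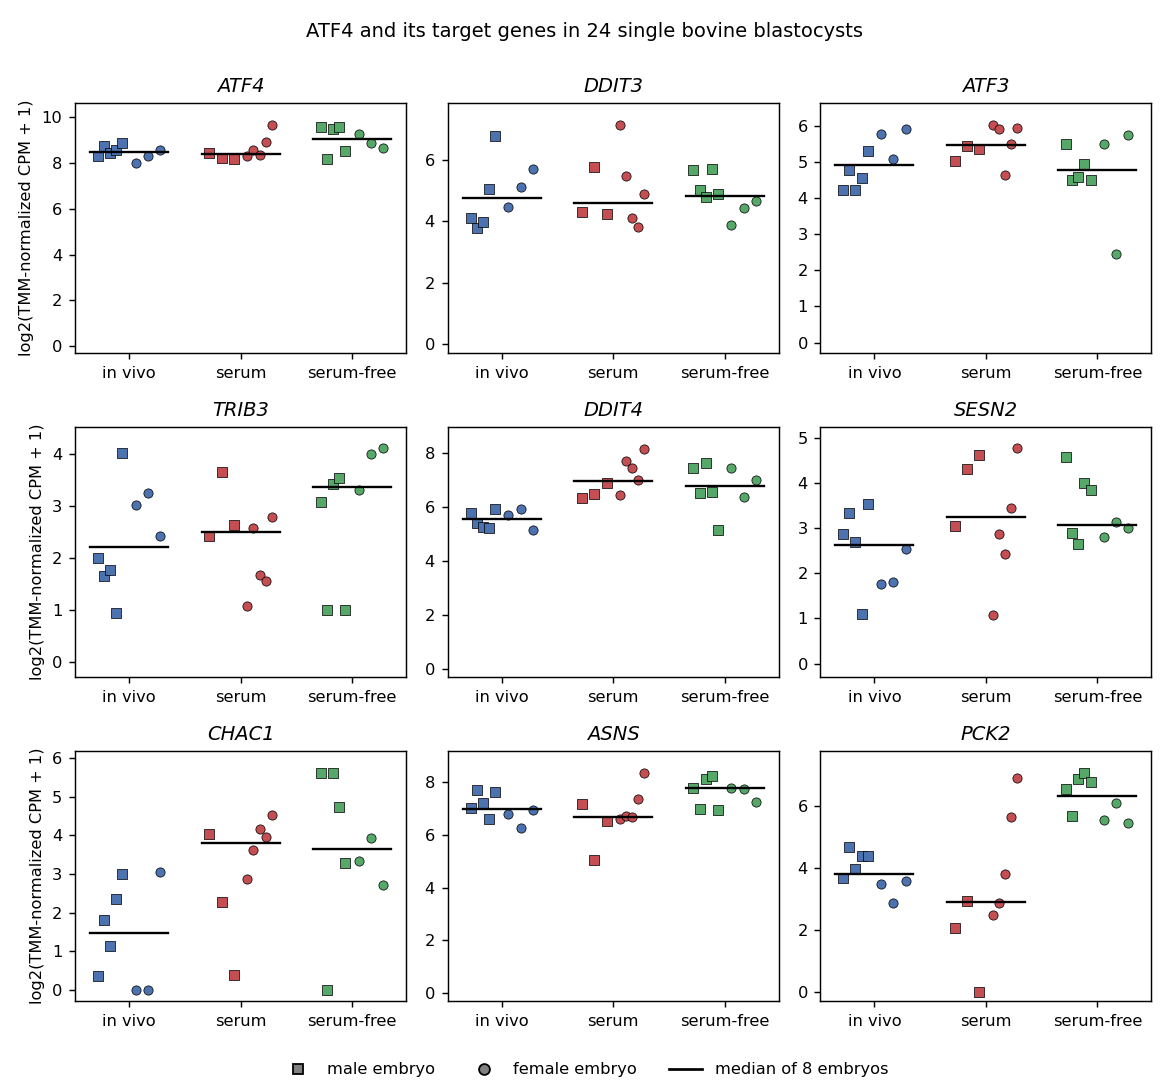
Each panel plots 1 gene as log2(TMM-normalized CPM + 1) in 24 single blastocysts, with the culture condition on the horizontal axis, squares for male and circles for female embryos, and a line at the median of the 8 embryos. All 8 serum embryos lie above all in vivo derived embryos for DDIT4, and all 8 serum-free embryos do so for PCK2.

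ATF4 is the transcription factor at the centre of the response. It had 254 CPM in the lowest in vivo derived embryo, a median of 356 CPM and 461 CPM in the highest. In the serum group the same 3 values were 283, 332 and 798 CPM, and in the serum-free group they were 284, 531 and 749 CPM. B8 alone made the serum range wide, since the next serum embryo had 474 CPM, while 5 of 8 serum-free embryos lay above every in vivo derived embryo. The mean was 357 ± 65.7 CPM in vivo, 401 ± 172 CPM in serum and 538 ± 186 CPM in serum-free medium (SD, n = 8 each). ATF4 was 1.54-fold higher in serum-free than in in vivo derived embryos (log2 fold change 0.62, SE 0.18, adjusted p = 0.0479). This call sat at the threshold and was lost without any 1 of 11 embryos (A1, A2, A3, A4, A6, A7, A9, C1, C4, C6 or C10), where the log2 fold change stayed between 0.55 and 0.66 and the adjusted p reached 0.0928. In serum the difference from in vivo was 0.17 on the log2 scale (SE 0.20, adjusted p = 0.537), and without B8 it was -0.04.

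DDIT3 encodes CHOP, a transcription factor that promotes cell death when the stress lasts. Its lowest, median and highest values were 12.8, 26.8 and 108 CPM in vivo, 13.1, 23.9 and 140 CPM in serum, and 13.7, 27.5 and 50.4 CPM in serum-free medium. In the first 2 conditions a single embryo lay far above the rest, A8 with 108 CPM and B2 with 140 CPM. The log2 fold change from in vivo was 0.24 (SE 0.53, adjusted p = 0.756) in serum and -0.22 (SE 0.39, adjusted p = 0.790) in serum-free medium. Each of these signs turned when 1 embryo was left out, the first without B2 (-0.39) and the second without A8 (0.26). In the current RefSeq annotation DDIT3 overlaps MARS1, a methionyl-tRNA synthetase, and the libraries were not strand-specific, so reads of the overlap could belong to either gene.

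ATF3, a bZIP factor that is itself induced by ATF4, had 17.9, 29.7 and 59.8 CPM (lowest, median, highest) in vivo. It had 23.99, 43.9 and 65.2 CPM in serum and 4.46, 26.8 and 53.4 CPM in serum-free medium. The 3 ranges overlapped, and the low serum-free value belonged to C3 alone, since the next embryo had 21.7 CPM. Neither in vitro group differed from in vivo by more than the spread between embryos (0.46, SE 0.29, adjusted p = 0.241 for serum and -0.13, SE 0.37, adjusted p = 0.887 for serum-free medium).

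TRIB3 encodes a pseudokinase that binds ATF4 and restrains it. It was thinly counted, with between 4 and 96 counts per embryo. Its values were 0.92, 3.67 and 15.2 CPM in vivo, 1.09, 4.67 and 11.6 CPM in serum and 0.99, 9.30 and 16.3 CPM in serum-free medium. In every condition the highest embryo had more than 10 CPM and the lowest about 1 CPM. The log2 fold change was -0.22 (SE 0.58, adjusted p = 0.837) in serum and 0.69 (SE 0.56, adjusted p = 0.577) in serum-free medium.

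DDIT4, also called REDD1, restrains mTORC1, the kinase complex that drives growth when amino acids are plentiful, and answers to hypoxia and glucocorticoids as well as to ATF4. It had 34.8, 46.7 and 60.2 CPM in vivo, with a narrow mean of 47.0 ± 10.8 CPM (SD, n = 8). The serum embryos had 79.8, 123 and 284 CPM (145 ± 71.8, SD, n = 8), so the lowest of them lay above the highest in vivo derived embryo. The serum-free embryos had 34.2, 109 and 199 CPM (121 ± 56.5, SD, n = 8), where 7 lay above every in vivo derived embryo and C7, the embryo with the highest trophectoderm sum (27995 CPM), lay below all of them. DDIT4 was 3.1-fold higher in serum (log2 fold change 1.63, SE 0.26, adjusted p = 0.000326) and 2.62-fold higher in serum-free medium (1.39, SE 0.27, adjusted p = 0.00400). Both calls held without any single embryo, with log2 fold changes from 1.43 to 1.75 and from 1.26 to 1.53. Without the 4 serum embryos of few genes, the serum difference was 2.08 (SE 0.21, adjusted p = 3.74e-05).

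SESN2 encodes a sestrin, a leucine sensor that likewise restrains mTORC1. Its values were 1.15, 5.13 and 10.6 CPM in vivo, 1.09, 8.59 and 26.1 CPM in serum, and 5.28, 7.39 and 22.7 CPM in serum-free medium. In each in vitro group 3 embryos lay above the highest in vivo derived embryo, and no serum-free embryo fell below 5 CPM, as 4 in vivo derived embryos did. The log2 fold change was 1.20 in serum (SE 0.55, adjusted p = 0.157) and 1.00 in serum-free medium (SE 0.41, adjusted p = 0.150), so neither passed.

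CHAC1 breaks down glutathione and is a direct target of ATF4. A6 and A7 had no count of it, A1 had 1 count, and the highest in vivo derived embryo had 7.26 CPM (median 1.84). The serum embryos ran from 0.31 to 22.1 CPM (median 13.0) and the serum-free embryos from 0 in C2 to 48.7 CPM in C1 (median 11.7). Above every in vivo derived embryo lay 5 of 8 serum and 6 of 8 serum-free embryos, but B7 and C2 were as low as the lowest in vivo embryos. A count of 0 allows up to 3 counts of the library, which is under 1 CPM in each of these embryos, a limit for counting error only. The log2 fold change was 2.02 in serum (SE 0.77, adjusted p = 0.0953) and 2.83 in serum-free medium (SE 0.78, adjusted p = 0.0619). The serum-free difference passed without C2 (adjusted p = 0.0238) and without C7 (adjusted p = 0.0492), and the serum difference without the 4 serum embryos of few genes (2.53, adjusted p = 0.0319).

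ASNS, asparagine synthetase, makes asparagine from aspartate and glutamine. It had 74.3, 124 and 204 CPM in vivo, 32.2, 102 and 322 CPM in serum and 122, 214 and 298 CPM in serum-free medium. The serum-free range began at about the in vivo median and 5 of its 8 embryos lay above the highest in vivo derived embryo, while the serum range was wider than the in vivo range at both ends (B5 low, B8 high). The serum-free difference was 0.61 on the log2 scale (SE 0.21, adjusted p = 0.0938) and did not pass, and the serum difference was -0.03 (SE 0.33, adjusted p = 0.954).

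PCK2, the mitochondrial phosphoenolpyruvate carboxykinase, turns oxaloacetate into phosphoenolpyruvate and can feed serine synthesis. It had 6.30, 13.2 and 24.3 CPM in vivo (mean 14.8 ± 6.12, SD, n = 8) and 42.4, 79.9 and 133 CPM in serum-free medium (81.9 ± 35.3, SD, n = 8). The lowest serum-free embryo therefore lay above the highest in vivo derived embryo. The difference was 5.64-fold (log2 fold change 2.49, SE 0.29, adjusted p = 0.000191), and PCK2 ranked 1 of the 7314 genes tested by its p-value. It ranged from 2.37 to 2.64 when each embryo was left out, and each of those 16 fits passed.

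The serum embryos spread widest for PCK2. B7 had no count, B1 had 3.19, B2 4.59, B3 6.30, B5 6.63, B4 12.8, B6 48.9 and B8 119 CPM. Thus 4 embryos lay below the lowest and 2 above the highest in vivo derived embryo, and a mean of 25.2 ± 41.1 CPM (SD, n = 8) describes none of them well. The log2 fold change of 0.76 (SE 0.74, adjusted p = 0.456) rested on B8, since it was -0.32 without that embryo. B8 and B6 also had the highest trophectoderm sums of the serum group, 5186 and 2776 CPM against 296 to 1656 CPM in the other 6, and the part of this in the PCK2 values was not tested. Without the 4 serum embryos of few genes, which left only female embryos in that group, the difference was 1.66 (SE 0.53, adjusted p = 0.0374).

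**Figure D2:**
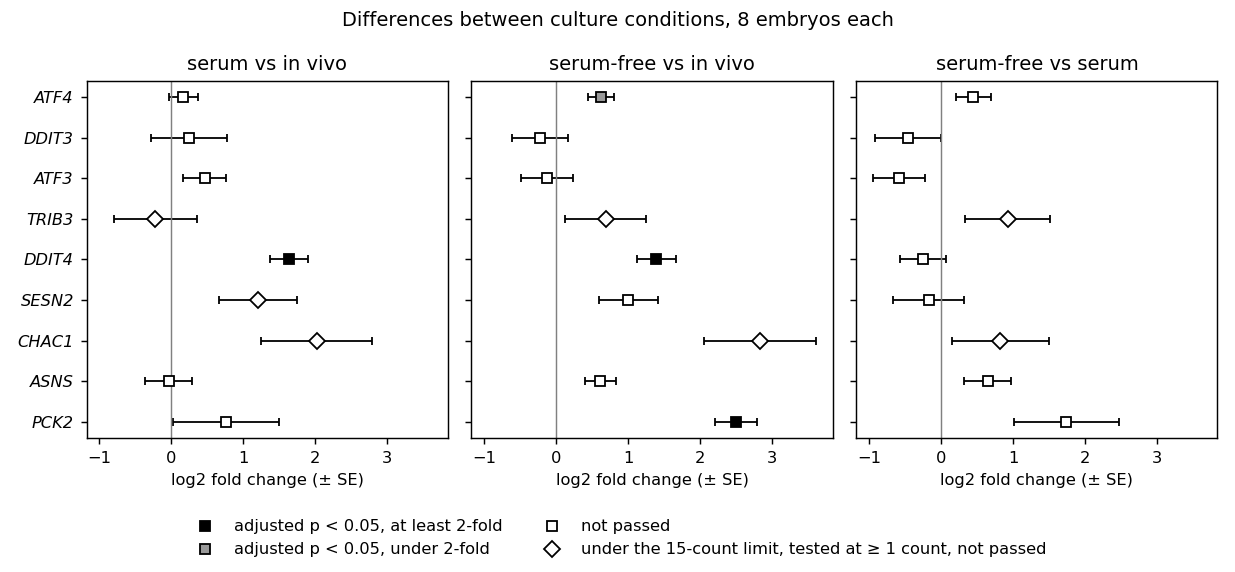
Log2 fold changes with approximate standard errors of the 9 genes in the 3 comparisons of 8 embryos against 8, where the first-named group is higher to the right of 0. Filled squares mark DDIT4 in both in vitro groups and PCK2 in serum-free medium, and the grey square marks ATF4, which changed by less than 2-fold.

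Counted over the members, 1 of 6 tested was differentially expressed in serum against in vivo, while 13.8% of all 7339 genes tested were. In serum-free medium 2 of 7 tested were differentially expressed, against a background of 2.20%, and 3 of 7 changed, against 5.82%. The members were chosen with earlier results of these data known, so these counts are a description. Ranges that did not overlap were seen for 1 member in each comparison, where 7.00% and 0.971% of all genes tested had them, and for none between serum-free and serum embryos (2.28%). The median log2 fold change was 0.35 over the 6 members tested and 0.01 over all genes in serum, and 0.62 over 7 members and 0.00 over all genes in serum-free medium. These medians leave out TRIB3 and CHAC1, and in serum also SESN2, which had too few counts. None of these passed in the test from 1 count on, where 7.32% of 19159 genes in serum and 0.772% of 19171 in serum-free medium were differentially expressed. SESN2 entered the serum-free comparison only through the serum-free embryos.

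Compared directly, serum-free and serum embryos did not differ past the threshold for any of 7 members tested. Of all 7181 genes, 8.91% (640, and 393 without C7) were differentially expressed. In the test from 1 count on it was 2.97%, and TRIB3 and CHAC1 did not pass there. DESeq2 and the exact test of edgeR called 0 members as well. An unadjusted p under 0.05 was seen for 1 of 7 members and 2374 of 7181 genes. The intervals leave room for differences in either direction for most members. For PCK2 the log2 difference was 1.73 with an approximate, unadjusted 95% interval of 0.31 to 3.16 (adjusted p = 0.105), and for ATF4 it was 0.45 with an interval of -0.02 to 0.92 (adjusted p = 0.200). For DDIT4 it was -0.25 with an interval of -0.88 to 0.38 (adjusted p = 0.621). B8 decided 3 of these outcomes. Without it, PCK2 (2.81, adjusted p = 0.00872), ASNS (0.98, adjusted p = 0.0243) and ATF4 (0.66, adjusted p = 0.0372) were higher in serum-free than in serum embryos. PCK2 entered this comparison only through the serum-free embryos, where it was high, since B1 and B7 were below the count limit.

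**Figure D3:**
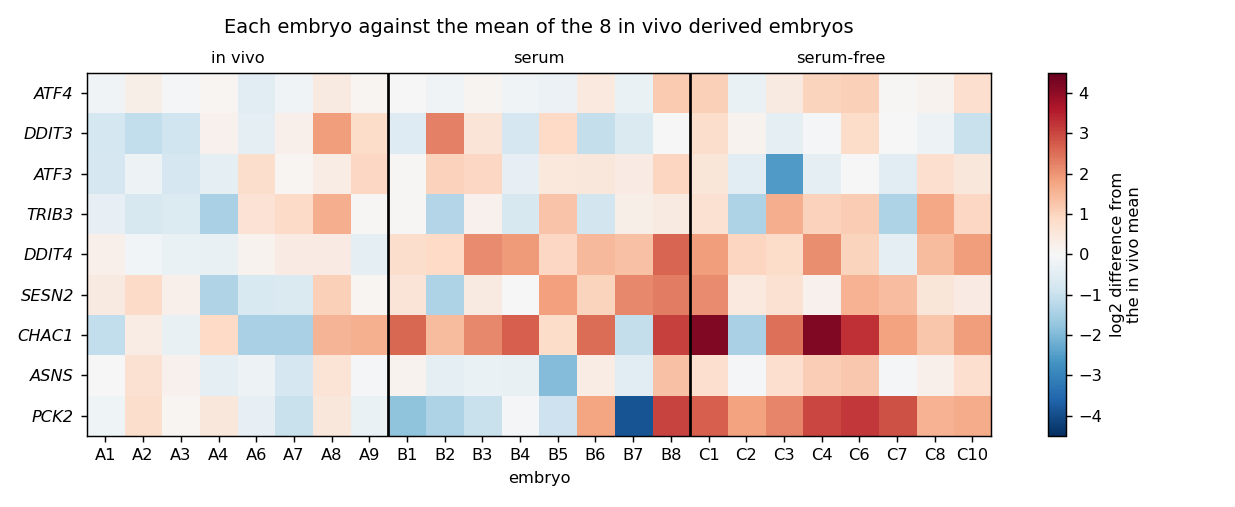
Difference of each embryo (columns) from the in vivo mean of each gene (rows), on the log2(CPM + 1) scale, red for higher and blue for lower. The PCK2 row is red in all 8 serum-free embryos but mixed in serum, with B7 lowest, and B8 is red or near white in every row.

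Within a condition, the members varied together only in part. Over the 36 pairs of members, the correlation of deviations from the condition means across 24 embryos had a median Pearson r of 0.21, and 7 pairs were above 0.5. These 7 pairs lay among ATF4, CHAC1, ASNS, PCK2 and DDIT4. ATF4 went with ASNS (r = 0.78, Spearman rho = 0.81), and within conditions the r was 0.64 in vivo, 0.82 in serum and 0.92 in serum-free medium. Over all 24 embryos, ATF4 also went with CHAC1 (r = 0.78), PCK2 (r = 0.67) and DDIT4 (r = 0.56). Within conditions the r ran from 0.62 to 0.89 for CHAC1 and from 0.54 to 0.86 for PCK2. For DDIT4 it was -0.17 in vivo, 0.70 in serum and 0.60 in serum-free medium, so the 2 genes did not go together in vivo. Over all 24 embryos the r of ATF4 was 0.09 with DDIT3, 0.21 with ATF3, 0.29 with TRIB3 and 0.37 with SESN2. These are descriptions, since the values of an embryo come from the same library and share its depth and its mix of cells.

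**Figure D4:**
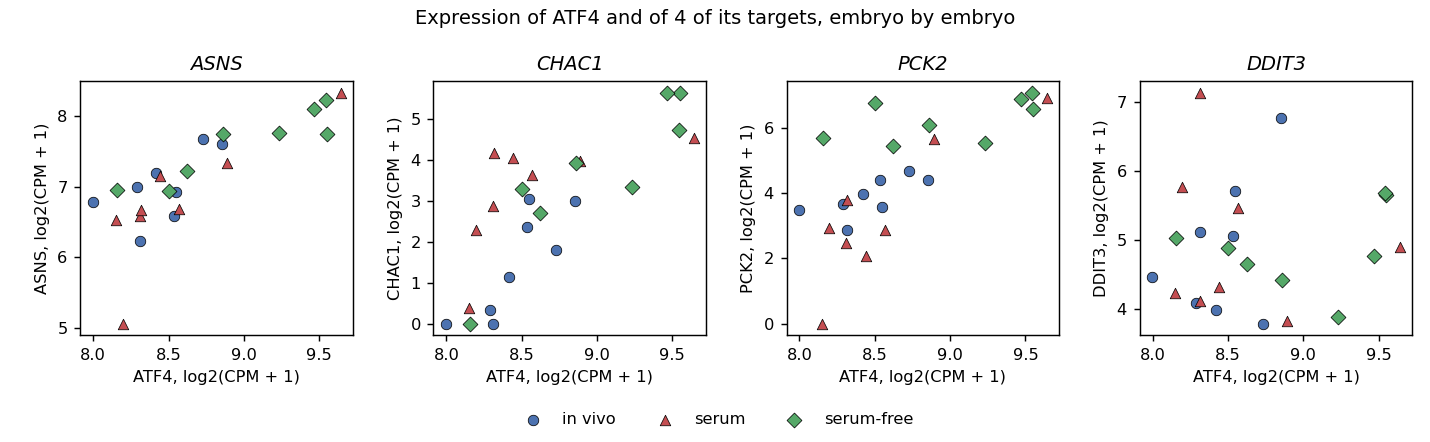
ATF4 (horizontal axis) against ASNS, CHAC1, PCK2 and DDIT3 (vertical axes), all as log2(TMM-normalized CPM + 1), with 1 point per embryo and a marker shape per condition. Embryos with more ATF4 tend to have more ASNS and CHAC1, the serum-free points lie above all in vivo points for PCK2 while B6 and B8 of the serum group lie among them, and the DDIT3 points scatter (r = 0.09).

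The same deviations were compared over 7557 genes, those past the count limit in every embryo of a condition. CHAC1 (r = 0.78 with ATF4) was below that limit in each condition and was left out. The 3 most like ATF4 were ASNS (r = 0.78) and the amino acid transporters SLC1A4 (r = 0.78) and SLC38A2 (r = 0.73). For PCK2 they were CLIC4 (r = 0.88, Spearman rho = 0.77), PSAT1 (r = 0.88, rho = 0.77), an enzyme of serine synthesis, and MPI (r = 0.84, rho = 0.68). The SD of PCK2 on the log2 scale was 2.14 in serum, 0.59 in vivo and 0.65 in serum-free medium. The serum embryos therefore weigh most in the r values of PCK2. For DDIT4 they were CLASP2 (r = 0.75), DNAJC15 (r = 0.71) and ENSBTAG00000037799 (r = 0.68).

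Single embryos were high for many members at the same time. A8 was among the 2 highest in vivo derived embryos for 8 of 9 members and the highest for 5. B8 was among the 2 highest serum embryos for 8 of 9 and the highest for 6. In serum-free medium, C1 was among the 2 highest for 6 members and C6 for 5, while C2 was among the 2 lowest for 5 and C7 for 4. The trophectoderm sum of A8 (10723 CPM) was within the in vivo range, that of B8 was the highest of its group, and that of C1 (5001 CPM) was the lowest of its group.

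Sex was compared within each condition, and none of the members was differentially expressed between male and female embryos. The share of all genes tested that were was 0.653% in vivo, 0.173% in serum and 0.139% in serum-free medium. In vivo, 3 of 7 members and 1077 of 7963 genes had an unadjusted p under 0.05. In serum 2 of 9 members and 470 of 7534 genes had one, and in serum-free medium 2 of 9 members and 634 of 7918 genes. DESeq2 and the exact test of edgeR also called 0 in each condition. PCK2 had 11.7 to 24.3 CPM in the 5 male and 6.30 to 10.9 CPM in the 3 female in vivo derived embryos, ranges that did not overlap (0.97 on the log2 scale, male over female, adjusted p = 0.284), as was seen for 9.83% of genes. In serum-free medium PCK2 had 50.4 to 133 CPM in male and 42.4 to 66.9 CPM in female embryos (0.97, adjusted p = 0.416). In serum the order was opposite, with 0 to 6.63 CPM in male and 4.59 to 119 CPM in female embryos (-3.54, adjusted p = 0.646). PCK2 entered this serum test only through the female embryos, where it was high. It is among the 2 members counted there at an unadjusted p under 0.05, so that count is a description.

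With the sexes apart, PCK2 was higher in serum-free than in in vivo derived embryos in both sexes, by 2.51 on the log2 scale each time (SE 0.28, adjusted p = 0.00186 in males and SE 0.37, adjusted p = 0.0323 in females). It was the only member differentially expressed in either sex, against 0.966% and 0.304% of all genes, and its groups did not overlap, as for 5.43% and 21.2% of genes. In females ATF4, TRIB3, DDIT4, SESN2 and ASNS did not overlap either. SESN2 passed the count limit there only through the serum-free embryos, where it was high. For DDIT4 the difference was 1.41 in males (adjusted p = 0.067) and 1.39 in females (adjusted p = 0.108). An unadjusted p under 0.05 was seen for 3 of 7 members and 1377 of 7662 genes in males, and 4 of 9 members and 1153 of 8211 genes in females. The female call of PCK2 was lost without any 1 of the 6 embryos, A6, A7, A9, C3, C8 or C10. In male serum embryos, DDIT4 was higher (1.01, SE 0.26, adjusted p = 0.0214) and PCK2 lower (-2.44, SE 0.78, adjusted p = 0.0478) than in male in vivo derived embryos, which makes 2 of 8 members tested against 13.3% of genes. PCK2 entered this test only through the in vivo derived embryos, where it was high, since B7 had 0 and B1 had 11 counts, so its call and the count of 2 are a description. For both members the 2 groups did not overlap, as for 26.2% of genes. Only 0 to 2 of these calls remained when 1 embryo was left out, with none past the threshold without A2, A3 or A4 and 1 without A1, A8 or B7. All 3 male serum embryos were among the 4 with few genes, so sex and the number of genes found cannot be told apart in that group. In female serum embryos 0 of 8 members passed in edgeR (0.418% of all genes did), and DESeq2 and the exact test of edgeR each called 1. An unadjusted p under 0.05 was seen there for 1 of 8 members and 1719 of 8138 genes. There, DDIT4 was 85.5 to 284 CPM against 34.8 to 60.1 CPM in vivo without overlap, as for 22.7% of genes (1.88, SE 0.39, adjusted p = 0.0700).

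The interaction of sex and culture, which tests whether the effect of culture differed between the sexes, was past the threshold for 0 of 9 members with either medium, as for 0% of all genes. With an unadjusted p under 0.05 there were 3 members and 436 of 8446 genes in serum, and 0 members and 555 of 8425 genes in serum-free medium, and DESeq2 called 0 members with either. The largest was PCK2 in serum, with an effect of -4.46 on the log2 scale in males relative to females (SE 1.38, unadjusted p = 0.00492, adjusted p = 0.664).

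The rest of the pathway was read from 11 lists of genes, by the genes of each that passed the count limit. The lists, too, were written with earlier results of these data known, so their counts are a description. CEBPA, CEBPD, CBS, SLC7A5, SLC43A1, NARS, BBC3, TNFRSF10B, HSPA5, PDIA4, CASTOR1 and ADM were not analysed here. As their background, 14.8% of all genes tested rose and 13.4% fell in serum, 3.38% rose and 2.45% fell in serum-free medium, and 8.02% were higher and 8.29% lower in serum-free than in serum embryos. An unadjusted p under 0.05 was seen for 3023 of 7339 genes in serum, 1571 of 7314 in serum-free medium and 2374 of 7181 between the media. Of the eIF2alpha kinases, the sensors at its start, 0 of 2 tested passed in serum, 0 of 3 in serum-free medium and 0 of 3 between the media in edgeR, where 0, 1 and 1 had an unadjusted p under 0.05. Of 13 genes for eIF2, its exchange factor eIF2B and the eIF2alpha phosphatase, 3 rose and 2 fell in serum. The phosphatase subunits PPP1CC (1.09, adjusted p = 0.000246) and PPP1CA (-0.68, adjusted p = 0.0171) moved in opposite directions there. In serum-free medium EIF2S2 rose (0.47, adjusted p = 0.0218) and PPP1R15A, the subunit GADD34 that directs the phosphatase to eIF2alpha and closes the response, fell (-0.88, adjusted p = 0.0322). Of 6 bZIP partners and regulators of ATF4, 0 passed in serum (0 at an unadjusted p under 0.05), and NUPR1 (1.52, adjusted p = 0.0326) and JDP2 (0.92, adjusted p = 0.0436) rose in serum-free medium.

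Enzymes of amino acid synthesis rose in serum-free medium. Of 10 tested in serum-free against in vivo derived embryos, 7 rose, 6 of them at least 2-fold, and 0 fell, with a median log2 fold change of 1.29 against 0.00 over all genes. One of the 7, CTH, passed the count limit only through the serum-free embryos, where it was high, and the count without it is 6. The 3 with the largest change were the enzymes of serine synthesis from glycolysis, PSAT1 (2.15, SE 0.34, adjusted p = 0.00137), PSPH (1.80, SE 0.34, adjusted p = 0.00355) and PHGDH (1.71, SE 0.35, adjusted p = 0.00623). In serum 2 of 9 rose. They were SHMT2, which splits serine into glycine in the mitochondrion (2.01, SE 0.26, adjusted p = 5.61e-05), and GOT1 (0.72). SHMT2 was also among the 7 that rose in serum-free medium (1.27). Between the media, CTH, which makes cysteine from cystathionine, was higher in serum-free embryos (1.79, adjusted p = 0.0429), through which alone it passed the count limit, and SHMT2 was lower (-0.74, adjusted p = 0.0426).

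Of the amino acid transporters, 3 were tested in serum and 4 in serum-free medium. SLC1A5, a glutamine carrier, rose in both in vitro groups (1.61, adjusted p = 5.30e-05 in serum and 1.46, adjusted p = 0.0198 in serum-free medium). SLC38A2, a carrier of small neutral amino acids, fell in serum (-1.58, adjusted p = 0.000394). Of 12 genes for aminoacyl-tRNA synthetases and the tRNA exporter XPOT, GARS alone rose in serum-free medium (2.12-fold, adjusted p = 0.0106), WARS and XPOT fell in serum (-0.86 and -0.83), and 3 were higher in serum-free than in serum embryos. Among other ATF4 targets, 9 were tested in serum, 8 in serum-free medium and 9 between the media. SESN1, the sestrin paralog of SESN2, rose in serum-free medium (1.31, adjusted p = 0.0465). KLHL24 fell in both in vitro groups (-0.68 in serum and -1.06 in serum-free medium), and MAP1LC3B, of autophagy, fell in serum-free medium (-0.52). Between the media, HERPUD1 was higher in serum-free embryos (1.80, adjusted p = 0.034), and TXNIP (-1.71) and MAP1LC3B (-0.78) were lower. TXNIP passed the count limit there only through the serum embryos, where it was high.

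**Figure D5:**
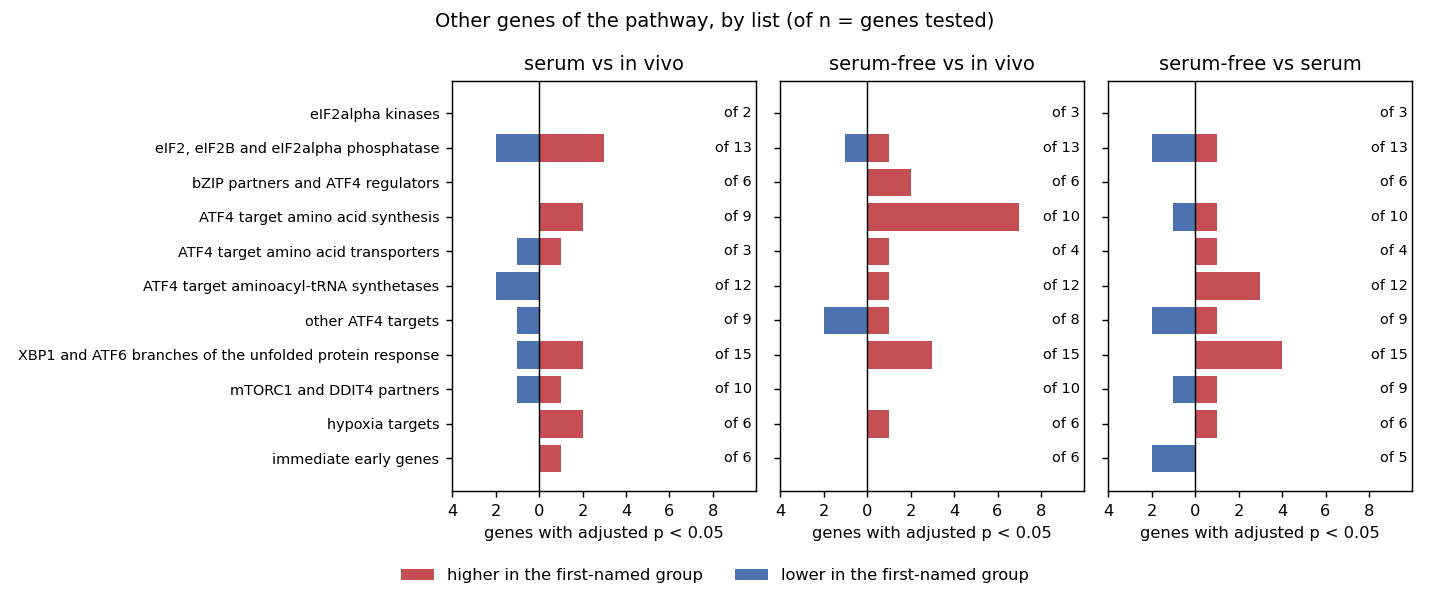
Number of genes per list with an adjusted p under 0.05, higher (red, right) or lower (blue, left) in the first-named group, with the number tested at the right edge. The longest bar is that of amino acid synthesis in serum-free against in vivo derived embryos, 7 of 10.

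The other branches of the unfolded protein response, led by XBP1 and ATF6, changed for 3 of 15 genes tested in each comparison with in vivo. The backgrounds of these counts differed. In serum 2 rose and 1 fell, where 14.8% of all genes rose and 13.4% fell. In serum-free medium 3 rose and 0 fell, where 3.38% of all genes rose and 2.45% fell. In serum-free medium HSP90B1 (1.42, adjusted p = 0.0249), MANF (1.31, adjusted p = 0.00426) and DNAJB11 (0.93, adjusted p = 0.0128), all folding factors or proteins of the endoplasmic reticulum, rose. In serum DNAJB11 (0.96) and ATF6 (0.74) rose and EDEM1, which marks misfolded glycoproteins for disposal, fell (-1.79, adjusted p = 0.00818). EDEM1 was low in serum embryos and passed the count limit only through the other group, here and between the media. Between the media 4 of 15 were higher in serum-free embryos, among them EDEM1 (2.06) and XBP1 (1.80).

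DDIT4 also belongs to other circuits. Of 10 genes of mTORC1 and the partners of DDIT4, 1 rose and 1 fell in serum and 0 passed in serum-free medium (0 at an unadjusted p under 0.05). Of 6 hypoxia targets, NDRG1 (1.77, adjusted p = 0.00356) and BNIP3 (1.25, adjusted p = 0.00279) rose in serum, and SLC2A1 rose in serum-free medium (0.42, adjusted p = 0.0375). Both in vitro groups were kept at 5% oxygen. Of 6 immediate early genes, which respond fast to growth factors, DUSP1 rose in serum (2.11-fold, adjusted p = 0.0170) and 0 passed in serum-free medium (3 at an unadjusted p under 0.05). Between the media, where 5 were tested, EGR1 (-1.44) and DUSP1 (-1.36) were lower in serum-free embryos. EGR1 passed the count limit there only through the serum embryos, where it was high.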

How the data were processed

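The members and the gene lists were chosen with earlier results of these data known. Single blastocysts were sequenced after SMARTer amplification. The authors trimmed the reads, removed 12 bases at the 5′ end, mapped them in CLC Genomics Workbench 7.0.4 to the UMD 3.1 genome (Ensembl 75), and deposited unnormalized counts of unique exon reads per gene. Reads are not stranded and carry no molecular identifiers. Every value column was matched to an embryo by name. Here edgeR 4.0.16 (R 4.3.3) was run with TMM and the quasi-likelihood test, in fits of only the groups compared, without covariates. The genes were filtered, tested and adjusted over the whole table. Standard errors were taken from the estimate and its F statistic. Alternatives were the exact test of edgeR, DESeq2 1.42.0, other count limits and size factors, thinned counts, 1 fit of all embryos, sex as a covariate, a replicate block and leaving out each embryo. P-values measure the spread between embryos, some of which may share a cow or experiment. The named genes were all members, and up to 3 genes per direction and list with the largest change among those past the threshold. Also named were the 3 most like ATF4, DDIT4 and PCK2 among the genes past the count limit. The pseudocount on the log2 scale was 1. RefSeq served only for gene neighbours.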

Additional observations from a re-analysis of the deposited data

Results flagged for a closer look

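ATF3 in the serum-free embryo C3 was 4.46 CPM (26 counts), with the next lowest of the 8 serum-free embryos at 21.7 CPM. The gap took 0.621 of the range of the group, above Dixon's 95% critical value for 8 values. It was the only value to stand apart in this way among 27 groups examined (9 genes in 3 conditions), where chance gives about 1 in 20. The values of C3 for the other members lay inside the range of the other serum-free embryos, and its trophectoderm sum (9793 CPM) lay inside the range of its group. Without C3, the log2 fold change of ATF3 from in vivo to serum-free medium turned from -0.13 to 0.06, and neither passed the threshold.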

How the results depend on the processing

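The number of members differentially expressed in serum against in vivo was 1, and 3 without the 4 serum embryos with the fewest genes, an alternative added after seeing the data. In serum-free against in vivo derived embryos it was 2, and 1 with a replicate block. In male serum-free embryos it was 1, 2 with DESeq2 or the exact test and 0 with a replicate block. In female serum-free embryos it was 1, and 2 with at least 1 count in any embryo, with DESeq2 or with the exact test. In female serum embryos it was 0, and 1 with DESeq2 or the exact test. When single embryos were left out, the counts ran from 1 to 2 in serum, 2 to 3 in serum-free medium, 0 to 1 between the media, 0 to 2 in male serum, 0 to 1 in female serum and 1 to 2 in male serum-free embryos, and were 0 in every fit of female serum-free embryos, of male against female embryos and of the interactions.

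Embryos that share a replicate number did not deviate together (r from -0.13 to 0.09, 0 of 7 pairs over 0.1 in each pair of conditions), so the numbers do not pair the embryos. With the replicate block, all genes called numbered 82 against 161 in serum-free medium and 29 against 640 between the media, ATF4 in serum-free medium had an adjusted p of 0.206 and DDIT4 one of 0.0658 (1.13), and PCK2 in serum (-0.69), ASNS in serum (0.049), DDIT3 in serum (-0.020), DDIT3 in serum-free medium (0.35), DDIT3 between the media (0.21) and SESN2 between the media (0.34) changed sign. The block kept only the 7 embryos per group that share a number, and the cause was not tested further.

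Other changes of sign were PCK2 in serum with DESeq2 (-0.32) and with sex as a covariate (-0.13), and without the 4 serum embryos ASNS in serum (0.36), DDIT3 in serum (-0.50) and DDIT3 between the media (0.29). With 1 embryo left out, log2 fold changes ran from -0.36 to 0.15 for ASNS, -0.045 to 0.27 for ATF4, -0.39 to 0.75 for DDIT3, -0.32 to 0.99 for PCK2 and -0.57 to 0.20 for TRIB3 in serum, from -0.28 to 0.059 for ATF3 and -0.35 to 0.26 for DDIT3 in serum-free medium, and from -0.62 to 0.18 for DDIT3 and -0.46 to 0.086 for SESN2 between the media. None of these passed the threshold. The ATF4 call in serum-free medium was also lost with at least 1 count (adjusted p = 0.0914), with thinned counts (0.0512) and in 1 fit of all embryos (0.148), and CHAC1 there passed with the exact test (0.0430). All genes called in serum numbered 1011, and 544 with at least 15 counts in every embryo. In serum-free medium they numbered 161, 94 with that limit and 72 in 1 fit of all embryos. Between the media they numbered 640, 366 with that limit, 159 without the 4 serum embryos, and 393 to 784 when single embryos were left out. Counts per embryo limit TRIB3, CHAC1 and SESN2 most.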
